A study of Mus musculus with 8 samples.

Results

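Osbpl3 encodes ORP3, an oxysterol-binding-protein-related protein, and is described here across the cell types of mouse primary visual cortex (V1) beside 5 paralogs, Osbpl6, Osbpl7, Osbpl1a, Osbpl8 and Osbpl10. The 6 genes were taken by name from the 26711 features of the count matrix, and all 6 were present. Osbpl3 was chosen because it was lower after dark rearing in control mice, so its values in that contrast are given as a description, without a test. Single nuclei were isolated at postnatal day 21 from V1 of mice with loxP-flanked glucocorticoid receptor (GR, Nr3c1) alleles, all injected as newborns with an adeno-associated virus that drives its cargo from an astrocyte promoter. It carried Cre in GR-KO mice and the inactive ΔCre in GR-Con mice, both with a membrane-targeted eGFP, so that recombination was directed to astrocytes. The nuclei profiled were gated as GFP-negative, so GFP did not select nuclei that carried the vector. Rearing was under a normal light cycle (NR) or in darkness (DR). Crossing rearing with vector gave 4 groups of 2 libraries, written with rearing first (DR GR-KO is dark-reared with Cre). In the deposited cell table, 1 library of each group was male and 1 was female, and libraries are named by that below.

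Oxysterol-binding-protein-related proteins carry lipids between membranes that lie close together, most often between the endoplasmic reticulum and another organelle or the plasma membrane. Many exchange a cargo lipid such as a sterol or phosphatidylserine for phosphatidylinositol 4-phosphate (PI4P), and many attach to the endoplasmic reticulum through the VAP anchor proteins. ORP3, ORP6 and ORP7 form one subfamily. ORP3 binds VAPA and the small GTPase R-Ras, has been tied to cell adhesion, and moves to the plasma membrane when calcium enters the cell.

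In the mm10 (GRCm38) annotation, Osbpl3 lies on the minus strand at chr6:50293330-50456201, and no other annotated gene overlapped it. Osbpl6 lies at chr2:76406508-76600647, Osbpl7 at chr11:97050628-97068904, Osbpl8 at chr10:111164752-111297249 and Osbpl10 at chr9:114978569-115232225, all on the plus strand. Osbpl10 overlapped 1 same-strand and 3 opposite-strand genes of the feature list, and Osbpl7 overlapped 1 on the opposite strand, so part of their counts could belong to those genes. Of the 6 members, 4 had a promoter sequence in the RefSeq table (GRCm38.p6). The stretch upstream of the RefSeq start of Osbpl3, up to 250 bases and without bases inside the annotated gene, is shown because its level was lower after dark rearing, beside those of its subfamily member Osbpl6 and of Osbpl8, which did not pass the test for a rearing difference in any neuron type. They cover chr6:50456202-50456420 on the minus strand, chr2:76406258-76406507 on the plus strand and chr10:111164552-111164751 on the plus strand. Capitals mark TGACG, the core of the cyclic AMP response element that CREB, an activity-regulated factor, can bind, on either strand.
Osbpl3: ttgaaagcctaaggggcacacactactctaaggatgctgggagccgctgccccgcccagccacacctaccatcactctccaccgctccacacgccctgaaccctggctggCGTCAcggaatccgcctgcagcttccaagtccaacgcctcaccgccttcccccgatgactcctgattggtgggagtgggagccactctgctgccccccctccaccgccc
Osbpl6: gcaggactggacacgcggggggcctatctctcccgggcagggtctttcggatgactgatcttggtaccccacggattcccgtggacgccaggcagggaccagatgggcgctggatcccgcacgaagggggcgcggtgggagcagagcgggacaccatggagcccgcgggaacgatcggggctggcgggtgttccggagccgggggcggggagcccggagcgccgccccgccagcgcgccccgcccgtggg
Osbpl8: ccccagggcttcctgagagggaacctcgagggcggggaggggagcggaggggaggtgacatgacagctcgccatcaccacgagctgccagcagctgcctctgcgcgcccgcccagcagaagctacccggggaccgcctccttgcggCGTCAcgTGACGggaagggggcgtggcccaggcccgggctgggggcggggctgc
The Osbpl3 stretch held TGACG 1 time, on the strand opposite to the gene, 136 to 140 bases upstream of the RefSeq start, the Osbpl6 stretch did not hold it, and the Osbpl8 stretch held it 2 times. TGACG was in 17.8% of the 32851 RefSeq promoter stretches of 250 bases. Searched on both strands of the full 250 bases of the same 3 genes and not found were the full element TGACGTCA, the AP-1 site TGANTCA and the palindromic glucocorticoid response element. They were in 1.55%, 6.75% and 0.0304% of all stretches. TGACGTCA contains TGACG, so these searches overlap.

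The matrix held 102330 nuclei in 20 annotated cell types, 8 excitatory, 5 inhibitory and 7 non-neuronal, with a median of 14861 to 29223 UMIs per nucleus across libraries. The NR GR-KO libraries had the highest medians (22827.5 male, 29223 female) and the DR GR-KO libraries the lowest (14928.5 male, 14861 female). In GR-KO, depth therefore cannot be told apart from rearing. Of 54 cell type markers found among the features, 48 were highest in the type they mark. The others were Rorb and Rspo1 for L4, Bcl6 and Pou3f1 for L5PT, and Osr1 and Sulf1 for L6IT. The labels L4, L5PT and L6IT therefore got no support from their own markers in this check. The L5PT type of the NR GR-KO female library rested on 59 nuclei, against 384 to 504 in the other libraries. Chandelier cells (ChC) had 5 to 14 nuclei per library and were not tested, and microglia had 4 or fewer nuclei in 3 libraries. There were 1220 barcode sequences found in more than 1 library. Astrocyte Nr3c1 was between 207 and 263 CPM in the GR-Con libraries and between 268 and 284 CPM in the GR-KO libraries. This count covers the whole gene, most of which a deletion between loxP sites leaves in place, so it does not check the deletion.

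Osbpl3 was most abundant in ChC, Lamp5, Pvalb and Vip interneurons and in L6b neurons, and lowest in astrocytes and oligodendrocytes. Levels are counts per 1000000 UMIs (CPM), with UMIs summed per library and cell type. In NR GR-Con the level was 1720 ± 54.1 CPM (SD, n = 2) in ChC, 1226 ± 134 CPM in Lamp5, 1194 ± 56.6 CPM in Pvalb and 1010 ± 30.8 CPM in Vip interneurons. L6b, the deepest cortical neurons, was level with Vip at 1003 ± 19.7 CPM. Between 576 ± 25.8 and 502 ± 37.7 CPM came, in order, L4, Sst, L5PT, L5IT and L6IT. L6CT followed at 395 ± 5.99 CPM and L2/3 at 345 ± 10.9 CPM, and L5NP was the lowest excitatory type at 171 ± 13.1 CPM. Astrocytes were at 27.6 ± 0.225 CPM and oligodendrocytes at 37.7 ± 11.1 CPM, and their precursors (OPC) stood above both at 157 ± 3.18 CPM. Of neighbours in this order, the library ranges overlapped for Lamp5 and Pvalb, Vip and L6b, L5IT and L6IT, L6CT and SMC-Peri, SMC-Peri and L2/3, VLMC and Endo, and OPC and Micro, so these pairs did not differ beyond their spread. The other neighbours did not overlap, with 2 libraries each.

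**Figure D1:**
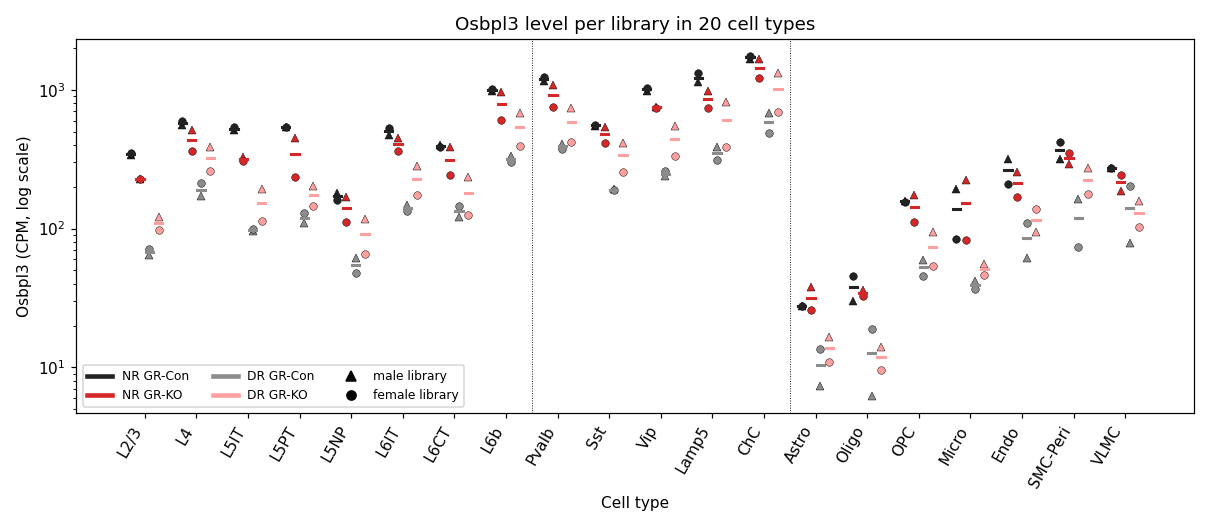
Osbpl3 level in CPM (log axis) for each of the 8 libraries in 20 cell types, with triangles for male and circles for female libraries, short bars for group means and dotted lines between excitatory, inhibitory and non-neuronal types. The DR GR-Con libraries lie below the NR GR-Con libraries in 20 of 20 types, the contrast through which Osbpl3 was chosen. The DR GR-KO libraries lie below the NR GR-KO libraries in 14 of 20.

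Other members had other distributions over the same types. Osbpl6 was highest in L5PT, at 587 ± 9.21 CPM (SD, n = 2) in NR GR-Con, and stayed between 43.0 and 47.0 CPM in the oligodendrocyte libraries of that group. Osbpl8, which encodes an ER-anchored protein that exchanges phosphatidylserine for PI4P at the plasma membrane, was highest in Lamp5 interneurons at 492 ± 33.6 CPM and next highest in L5PT at 350 ± 5.09 CPM. Osbpl1a, whose long product senses cholesterol on late endosomes, was at 405 ± 38.8 CPM in L2/3. Osbpl10, whose product works with ORP9 or ORP11 at endosome and Golgi contacts, was highest in L6b at 369 ± 87.8 CPM. Osbpl7 was a low gene in neurons, at 7.04 ± 0.102 CPM in L2/3, and reached 29.5 ± 1.39 CPM in oligodendrocytes. Its microglia value is not given because 3 libraries held 4 or fewer of these nuclei.

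Over the 20 types, the 3 genes whose NR GR-Con level was most like that of Osbpl3 were Mir124a-1hg, the host transcript of a neuronal microRNA (Pearson r = 0.932), Nsf, an ATPase of synaptic vesicle fusion (r = 0.924), and Cntn5, a neuronal adhesion protein (r = 0.900), of 13811 genes compared on log2(CPM + 1). Osbpl6 had r = 0.731, Osbpl8 0.630, Osbpl10 0.581, Osbpl1a -0.07 and Osbpl7 -0.39. These are descriptions over types that share libraries and differ in depth, with no test.

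In control mice, dark rearing went with a lower Osbpl3 level in both libraries of every one of the 20 types. The DR GR-Con female library held few vascular nuclei (1 to 5 in SMC-Peri, VLMC and Endo). In L2/3 the 2 NR GR-Con libraries were at 337 (male) and 352 CPM (female), and the DR GR-Con libraries were at 64.6 and 70.7 CPM. In L5IT they were at 512 and 537 CPM under NR and at 96.7 and 99.1 CPM under DR. In Pvalb they were at 1154 and 1234 CPM under NR and at 410 and 372 CPM under DR. In each of these types the groups stood well apart and the 2 libraries of a group stood close together. The fitted log2 fold change was -2.40 (SE 0.16) in L2/3, -2.42 (SE 0.15) in L5IT and -2.18 (SE 0.15) in L5PT, and lay between -1.56 and -1.85 in the other excitatory types. It was between -1.54 and -2.02 in the 4 inhibitory types fitted, -1.43 in astrocytes, -1.64 in oligodendrocytes and -1.55 in OPC. Across all genes at a mean of 10 CPM or more, 18.5% of gene and type pairs had both DR GR-Con libraries below both NR GR-Con libraries. Because Osbpl3 was chosen through this contrast, nothing is read from that comparison.

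The 5 paralogs did not share this size of change in the same libraries. Over the 8 excitatory types, the log2 fold change of DR over NR in GR-Con was between -0.52 and 0.03 for Osbpl6, -0.08 and 0.49 for Osbpl7, -0.38 and -0.01 for Osbpl1a, -0.35 and 0.35 for Osbpl8, and 0.19 and 0.50 for Osbpl10. Osbpl6, of the same subfamily as Osbpl3, was at 344 and 355 CPM in L2/3 of NR GR-Con and at 277 and 288 CPM in DR GR-Con.

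The GR-KO libraries are not part of the control contrast through which Osbpl3 was chosen, although the 6 genes were proposed with results of all groups known. They asked whether the level also followed rearing after astrocyte GR deletion. Osbpl3 was again lower after dark rearing, and passed the test in L2/3, L5IT and L6IT among excitatory types and in astrocytes, oligodendrocytes, OPC and VLMC (vascular leptomeningeal cells) among the others. In L2/3 the NR GR-KO libraries were at 227 and 228 CPM and the DR GR-KO libraries at 122 (male) and 97.7 CPM (female), a 2.01-fold lower level. The log2 fold change was -1.01 (SE 0.18, adjusted p = 3.7e-06, edgeR likelihood ratio test). In L5IT the libraries were at 330 and 307 CPM under NR and at 192 and 113 CPM under DR (log2 fold change -1.06, SE 0.27, adjusted p = 0.0081). In L6IT they were at 449 and 361 CPM under NR and at 284 and 173 CPM under DR (log2 fold change -0.81, SE 0.25, adjusted p = 0.024). The rearing groups did not overlap in these 3 types. The 3 calls of 8 excitatory types stand beside 2.15% of all gene and type pairs called lower in the same 8 fits. The genes were proposed with these results known, so nothing is read from this share or those given below for Osbpl3 in GR-KO.

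Inhibitory neuron markers were low in these 3 types, and their mean level was lower under DR as well. The summed level of Gad1, Gad2, Slc32a1 and Dlx6os1 was 6.48 to 7.42 CPM in L2/3 of NR GR-KO and 3.13 to 3.49 CPM in DR GR-KO, a log2 change of -1.07 with 4 of 4 markers lower. It was 5.24 to 7.59 and 3.34 to 5.52 CPM in L5IT (-0.53), where the rearing groups overlapped. In L6IT it was 6.58 to 8.28 and 3.61 to 4.55 CPM (-0.86). The mean was lower for 4 of 4 markers in both types, and none of the 4 was at 0 in a library. In interneurons of NR GR-KO the same sum was 653 to 693 CPM in Pvalb and 450 to 615 CPM in Sst, beside Osbpl3 at 755 to 1092 and 417 to 538 CPM. The part of this in the excitatory Osbpl3 values was not tested.

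In the other 5 excitatory types the fitted value was negative but did not pass. It was -0.97 (SE 0.33) in L5PT, -0.78 (SE 0.35) in L6CT, -0.61 (SE 0.27) in L5NP, -0.56 (SE 0.31) in L6b and -0.38 (SE 0.26) in L4, with adjusted p between 0.11 and 0.73. The approximate 95% interval in L4 ran from -0.88 to 0.13. In L6b, where Osbpl3 was highest among excitatory types, the NR GR-KO libraries were at 958 (male) and 611 CPM (female). The DR GR-KO libraries were at 679 (male) and 395 CPM (female), so the DR male library was above the NR female library. The NR GR-KO female value rests on 58 nuclei. The 4 inhibitory types fitted did not pass either, with log2 fold changes of -0.64 in Pvalb, -0.48 in Sst, -0.74 in Vip and -0.45 in Lamp5 and adjusted p between 0.17 and 0.55. Both DR GR-KO libraries were below both NR GR-KO libraries in 14 of 20 types, beside 23.7% of gene and type pairs, among them 5 of 8 excitatory types, beside 25.6%. Within each sex the DR library was below the NR library in 20 of 20 types. These types come from the same GR-KO libraries and include microglia, with 4 nuclei in the NR GR-KO male library. No share over all genes is given for this count. The within-sex log2 ratio over excitatory types had a median of -0.68 in males and -0.86 in females of GR-KO. It was -1.71 and -1.87 in GR-Con, the contrast through which Osbpl3 was chosen, so the genotypes are not compared.

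The male library was above the female library in 12 of 13 neuron types in NR GR-KO and in 13 of 13 in DR GR-KO, with a median log2 ratio of 0.45 and 0.77. In GR-Con this held in 2 of 13 types under NR and in 7 of 13 under DR, with medians of -0.06 and 0.04. With 1 library of each sex per group, sex cannot be told apart from library, and the difference between genotypes was not tested. With sex as a term in the model, the share of all genes called is not given, so its counts have no background. In that fit Osbpl3 was called lower in 7 of 8 excitatory types and in 8 of the other 10. With edgeR's quasi-likelihood F-test, which allows for uncertainty in the spread, it was called in 0 of 8 excitatory types, with an adjusted p of 0.051 in L2/3, although 6 of the 8 had an unadjusted p under 0.05 in the likelihood ratio test. The Osbpl3 value was negative in 18 of 18 types in each of these fits. The types share libraries, and no share over all genes is given for this count. The Osbpl3 value was also negative in 18 of 18 types with each GR-KO library left out in turn. How many types were called changed with the library left out. Such a fit keeps 1 library in its group.

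**Figure D2:**
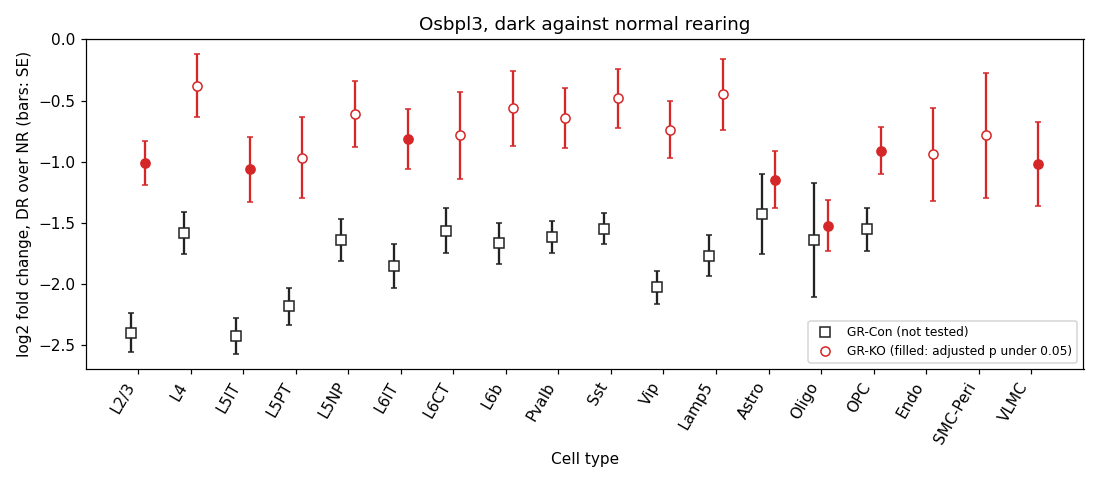
Fitted log2 fold change of Osbpl3 (DR over NR, y axis, bars are SE) in each cell type (x axis), in squares for GR-Con, where no test was made, and in circles for GR-KO, filled where the adjusted p was under 0.05. The GR-KO values were negative in 18 of 18 types, with 7 filled.

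Among non-neuronal types, oligodendrocytes had the largest fitted value. They were at 35.97 and 32.6 CPM in NR GR-KO and at 14.1 and 9.57 CPM in DR GR-KO, a log2 fold change of -1.52 (SE 0.21, adjusted p = 4.9e-10). These libraries held 327, 290, 70 and 54 Osbpl3 UMIs. Astrocytes, the cells in which Cre was directed, were at 37.9 and 25.7 CPM under NR and at 16.5 and 10.99 CPM under DR (log2 fold change -1.14, SE 0.23, adjusted p = 0.00021). OPC were at 174 and 112 CPM under NR and at 94.0 and 54.0 CPM under DR (log2 fold change -0.91, SE 0.19, adjusted p = 0.00068). VLMC were at 188 and 245 CPM under NR and at 158 and 103 CPM under DR (log2 fold change -1.02, SE 0.34, adjusted p = 0.018). The groups did not overlap in these types. All 4 also passed the quasi-likelihood test (adjusted p between 0.0023 and 0.046). DESeq2 called astrocytes and oligodendrocytes, gave VLMC an adjusted p of 0.27 and gave OPC no adjusted p. Called lower were 2.88% of all gene and type pairs in the 6 non-neuronal types fitted, and 19.9% of the genes tested in VLMC were called in either direction. Without the DR GR-KO female library, which leaves 1 library in that group, not all of these 4 calls held.

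Neuronal RNA in these types moved with rearing as well. The summed level of 6 excitatory markers (Slc17a7, Neurod6, Neurod2, Tbr1, Sv2b and Camk2a) in astrocytes was 161 to 179 CPM in NR GR-KO and 122 to 132 CPM in DR GR-KO, and 6 of 6 markers had a lower mean under DR. In oligodendrocytes the sum was 106 to 125 CPM under NR and 73.0 to 73.5 CPM under DR, again with 6 of 6 lower, and in OPC it was 154 to 160.3 CPM and 98.5 to 99.9 CPM, with 6 of 6 lower. In VLMC it was 836 to 863 CPM and 207 to 274 CPM, with 6 of 6 lower. None of the 6 markers was at 0 in a library in astrocytes, oligodendrocytes or OPC, and 1 was in VLMC of GR-KO. On the log2 scale the sum fell by 0.42 in astrocytes, 0.66 in oligodendrocytes, 0.66 in OPC and 1.82 in VLMC. The summed level of 4 inhibitory markers (Gad1, Gad2, Slc32a1 and Dlx6os1) in astrocytes was 25.7 to 31.4 CPM in NR GR-KO and 11.5 to 13.5 CPM in DR GR-KO, with 4 of 4 markers lower and a log2 change of -1.19, beside -1.14 for Osbpl3. It was 16.1 to 17.2 and 10.99 to 12.3 CPM in oligodendrocytes (3 of 4 lower), 83.8 to 86.2 and 60.3 to 71.8 CPM in OPC (4 of 4 lower), and overlapped in VLMC, at 15.3 to 49.8 and 16.7 to 27.1 CPM. On the log2 scale these sums fell by 0.51 in oligodendrocytes, 0.36 in OPC and 0.57 in VLMC, and 1 of the 4 markers was at 0 in a library of OPC and 2 in VLMC. The part of either marker set in the Osbpl3 values was not tested. In GR-Con the astrocyte sum of the excitatory markers overlapped between rearings, at 101 to 129 CPM under NR and 112 to 149 CPM under DR, while that of the inhibitory markers was 16.3 to 17.03 CPM under NR and 13.3 to 15.1 CPM under DR.

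Counted as nuclei with at least 1 Osbpl3 UMI, after each nucleus was thinned to 2000 UMIs, the share in L2/3 was 32.9% ± 1.16 (SD, n = 2) in NR GR-KO and 17.95% ± 2.11 in DR GR-KO, beside 45.0% ± 1.31 in NR GR-Con and 11.6% ± 0.743 in DR GR-Con. Without thinning the shares were 88.0% ± 6.45, 65.7% ± 0.806, 92.4% ± 0.295 and 53.8% ± 4.99. The L2/3 nuclei had a mean of library medians of 32448.5 UMIs in NR GR-KO and 18947 in DR GR-KO, and at most 2 nuclei of a group were too shallow to thin. In astrocytes the thinned share was 6.34% ± 1.32 in NR GR-KO and 2.84% ± 0.80 in DR GR-KO, at a mean median depth of 10392.75 and 5058 UMIs, and a share at this level cannot be told apart from free RNA. The L2/3 shares lay above the astrocyte shares in all 4 groups.

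The size of the rearing change in GR-KO did not pass a test of differences between the 8 excitatory types. These types come from the same libraries, and library was a term in that model. The fitted values spanned 0.73 on the log2 scale. The adjusted p was 0.28 in edgeR's likelihood ratio test, beside 6.22% of 17568 genes called. It was 0.46 in the quasi-likelihood test, which called 122 of these genes. This p changed with the library left out. Leaving out a library keeps 1 in its group, so only the span is given. It was 0.93 without the NR GR-KO male library and 0.71 to 0.81 without each of the others.

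GR-KO and GR-Con were next set side by side at the same rearing. Both comparisons use the GR-Con libraries through which Osbpl3 was chosen, so a high value in NR GR-Con or a low value in DR GR-Con enters the choice itself, and the Osbpl3 values are given as a description with no test. Under NR, L2/3 was at 337 and 352 CPM in GR-Con and at 227 and 228 CPM in GR-KO, a log2 fold change of -0.63 (SE 0.15), and L5IT had -0.71 (SE 0.16). The value was negative in 16 of 17 types fitted, astrocytes being the exception at 0.13 (SE 0.21). In astrocytes the excitatory marker sum was 101 to 129 CPM in NR GR-Con and 161 to 179 CPM in NR GR-KO, and the inhibitory sum was 16.3 to 17.03 and 25.7 to 31.4 CPM, and their part in this value was not tested. L5PT was at 538 and 541 CPM in GR-Con and at 453 (male) and 234 CPM (female) in GR-KO, a log2 fold change of -0.65 (SE 0.30), and the GR-KO female value rests on 59 nuclei. Without that library the log2 fold change in L5PT was -0.28.

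Under DR the fitted value was positive in 14 of 15 types, oligodendrocytes being the exception at -0.07 (SE 0.47). In L2/3 the DR GR-Con libraries were at 64.6 and 70.7 CPM and the DR GR-KO libraries at 122 and 97.7 CPM, a log2 fold change of 0.75 (SE 0.17). In L4 they were at 171 and 212 CPM in GR-Con and at 388 (male) and 259 CPM (female) in GR-KO, for a log2 fold change of 0.79 (SE 0.23). In Sst, somatostatin interneurons, they were at 194 and 189 CPM in GR-Con and at 417 and 258 CPM in GR-KO, a log2 fold change of 0.84 (SE 0.19). In Vip interneurons they were at 239 and 258 CPM in GR-Con and at 545 and 335 CPM in GR-KO, a log2 fold change of 0.85 (SE 0.19). Nothing is read from these signs, which the choice of Osbpl3 favours under both rearings.

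**Figure D3:**
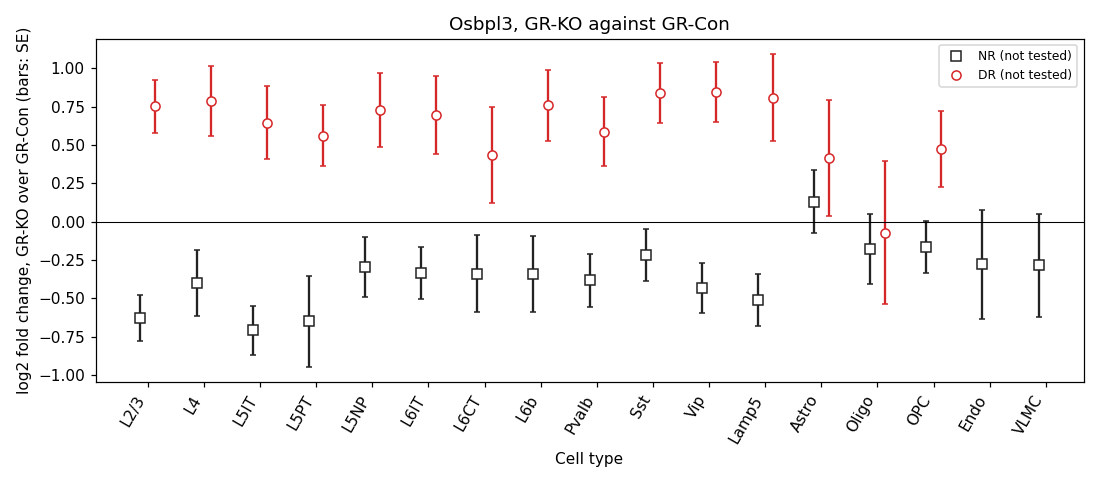
Fitted log2 fold change of Osbpl3 (GR-KO over GR-Con, y axis, bars are SE) in each cell type (x axis), in squares under NR and in circles under DR, given with no test. The value was below 0 in 16 of 17 types under NR and above 0 in 14 of 15 under DR.

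Of the paralogs in GR-KO, only Osbpl10 was called in a neuron type in the likelihood ratio test. Osbpl1a, like Osbpl3, was negative in 8 of 8 excitatory and 4 of 4 inhibitory types fitted. With sex as a term, 7 of 8 excitatory types were called for Osbpl10 (higher) and 4 for Osbpl1a (lower). No share of all genes called is given for that fit. Osbpl10 was higher after dark rearing in L2/3, L4, L6IT, L6CT and Pvalb. In L6CT, the corticothalamic neurons, the NR GR-KO libraries were at 165 and 173 CPM and the DR GR-KO libraries at 257 and 248 CPM (log2 fold change 0.60, SE 0.15, adjusted p = 0.0025). In L4 they were at 126 and 120 CPM under NR and at 170 and 162 CPM under DR (log2 fold change 0.50, SE 0.13, adjusted p = 0.0079). In Pvalb they were at 74.0 and 69.0 CPM under NR and at 110 and 96.2 CPM under DR (log2 fold change 0.55, SE 0.13, adjusted p = 0.0029). The log2 fold change was 0.53 in L2/3 and 0.45 in L6IT. Values in the other 4 excitatory types were between 0.48 and 0.74 and did not pass. In L2/3, L4, L6IT, L6CT and Pvalb of GR-KO the excitatory marker sum had log2 changes of 0.25, 0.26, 0.27, 0.16 and 0.07. The inhibitory sum had -1.07, -0.89, -0.86, -0.74 and 0.03. The part of either marker set in the Osbpl10 values was not tested. The quasi-likelihood test kept L4 (adjusted p = 0.045) and Pvalb (adjusted p = 0.038). The 4 calls of 8 excitatory types stand beside 2.22% of gene and type pairs called higher. The Pvalb call stands beside 0.656% in the inhibitory types. Osbpl10 is singled out from the paralogs because it was called, so nothing is read from these shares. Over all paralogs and all types, 6 of 87 tested pairs were called in either direction, beside 3.66% of all gene and type pairs. The Osbpl10 calls in excitatory types and in Pvalb were lost when either DR GR-KO library was left out. Such a fit keeps 1 library in a group. Osbpl1a or Osbpl8 was called in an excitatory type in some fits of this kind.

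Osbpl6 did not pass in a neuron type in GR-KO, with log2 fold changes between 0.10 and 0.26 over the 8 excitatory types and a smallest adjusted p of 0.37. In VLMC it was lower under DR, at 180 and 222 CPM in NR GR-KO and at 90.2 and 96.8 CPM in DR GR-KO, a log2 fold change of -1.36 (SE 0.33, adjusted p = 0.00041). The adjusted p was 0.012 in the quasi-likelihood test and 0.080 in DESeq2. These 4 libraries held 65, 159, 20 and 29 UMIs, and the excitatory marker sum in VLMC moved the same way, as given above. Osbpl1a was negative in 18 of 18 types, between -0.60 and -0.14 in excitatory types, and passed in none (smallest adjusted p = 0.064, in L6CT), while 7 of 18 had an unadjusted p under 0.05, DESeq2 called 1 and 5 were called with sex as a term. Osbpl8 was between -0.47 in L5PT and 0.27 in L4 over the excitatory types, and its lowest value over all types was -0.77 in SMC-Peri (smallest adjusted p over all types 0.22). The difference between excitatory types had an adjusted p of 0.055 for Osbpl8 in the likelihood ratio test and 0.24 in the quasi-likelihood test. The Osbpl8 span was 0.72 on the log2 scale. It was 1.00 without the NR GR-KO male library and 0.52 to 0.84 without each of the others. Osbpl7 was between -0.37 and 0.48 in excitatory types (smallest adjusted p 0.49) and passed the filter on low counts in 15 of 18 types.

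**Figure D4:**
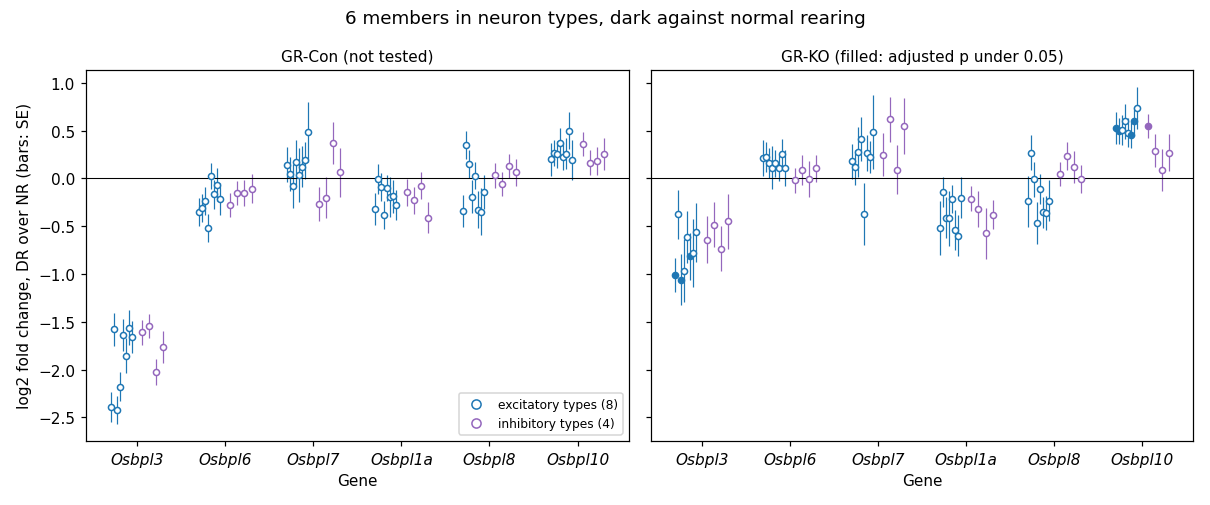
Fitted log2 fold change (DR over NR, y axis, bars are SE) of each of the 6 genes (x axis) in 8 excitatory (blue) and 4 inhibitory (purple) types, in GR-Con (left, no test made) and GR-KO (right, filled where the adjusted p was under 0.05). Osbpl3 and Osbpl1a are below 0 and Osbpl10 is above 0 in all 12 types of both panels.

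Between genotypes, no paralog passed in any type. This was 0 of 83 gene and type pairs under NR, with 3 at an unadjusted p under 0.05 and 0 in both the quasi-likelihood and DESeq2 runs, and 0 of 75 pairs under DR, with 4 at an unadjusted p under 0.05, none by quasi-likelihood and 2 by DESeq2. Both DESeq2 calls were of Osbpl6, in L2/3 (log2 fold change 0.43, SE 0.15) and in L4 (log2 fold change 0.39, SE 0.14), where edgeR gave adjusted p of 0.25 and 0.17. Osbpl6 in L2/3 of DR was at 277 and 288 CPM in GR-Con and at 354 and 375 CPM in GR-KO. The background was 0.804% of pairs called under NR and 0.513% under DR.

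The rest of the pathway was read from lists of the other 6 family members, 6 VAP anchors and R-Ras, 11 PI4P and phosphatidylserine enzymes and 16 genes of sterol transfer and contact sites. In the excitatory types of GR-KO, where 4.38% of all gene and type pairs were called between rearings, the 6 family members had 2 of 48 pairs called higher and 0 lower, with a median log2 fold change of 0.12, against -0.01 over all genes. Both were of Osbp2, a paralog of the founding family member, in L6IT (158 and 172 CPM under NR, 234 and 233 CPM under DR, log2 fold change 0.52, SE 0.14, adjusted p = 0.011) and in L6CT (adjusted p = 0.048). The VAP anchors and R-Ras had 0 of 43 tested pairs called in the likelihood ratio test, the quasi-likelihood test and DESeq2, 1 at an unadjusted p under 0.05, and a median of 0.06.

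Of the PI4P enzymes, 1 of 88 pairs was called higher and 0 lower (median 0.09). It was Efr3b, a membrane anchor of the PI4-kinase complex, in L2/3, at 105 and 85.6 CPM under NR and at 147 and 122 CPM under DR (log2 fold change 0.54, SE 0.18, adjusted p = 0.037). Of the contact site genes, 4 of 115 pairs were called higher and 1 lower (median 0.08), beside the 4.38% of all pairs called in either direction. Orai2, a store-operated calcium channel subunit, was higher in L2/3 (10.5 and 7.66 CPM under NR, 16.2 and 12.49 CPM under DR, adjusted p = 0.033) and in L6IT, with log2 fold changes of 0.71 in both. Esyt1, an extended synaptotagmin that tethers the ER to the plasma membrane, was higher in L5PT (log2 fold change 1.34, adjusted p = 0.010), from 1.64 and 1.85 to 4.39 and 3.94 CPM. The NR GR-KO female library held 59 L5PT nuclei, and DESeq2 gave this pair no adjusted p. The remaining call was of Stim2, an ER calcium sensor, in L6IT (log2 fold change 0.53, adjusted p = 0.034), named after its value was seen. Stard4, a soluble sterol carrier, was lower in L2/3, from 1.47 and 1.81 to 0.740 and 0.702 CPM (log2 fold change -1.14, SE 0.30, adjusted p = 0.0048). The quasi-likelihood test called 0 of these 8 pairs of the 4 lists, and DESeq2 called 14 in all.

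Between genotypes, where 0.363% of excitatory pairs of all genes were called under NR and 0.628% under DR, the 4 lists had 0 excitatory pairs called under NR in the likelihood ratio test, the quasi-likelihood test and DESeq2, with 5 at an unadjusted p under 0.05. Under DR, 2 pairs were called, both higher in GR-KO in L6IT and both named after their values were seen. They were Orai1 (log2 fold change 1.38, SE 0.36, adjusted p = 0.033), at 0.924 and 1.15 CPM in GR-Con and at 2.38 and 3.01 CPM in GR-KO, and Orai2 (log2 fold change 0.64, SE 0.17, adjusted p = 0.034), and the quasi-likelihood test called neither. DESeq2 called 2 pairs of the lists under DR, 1 of the PI4P enzymes and 1 of the contact site genes. At an unadjusted p under 0.05 were 1 pair of the family members, 1 of the VAP anchors and R-Ras, 5 of the PI4P enzymes and 17 of the contact site genes.

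Outside the excitatory types, the 4 lists had 5 of 316 pairs called between rearings in GR-KO, where 2.87% of all pairs were called, and all 5 were named after their values were seen. Efr3b was higher under DR in Lamp5 (log2 fold change 0.56, adjusted p = 0.012) and Stim1, an ER calcium sensor, in VLMC (1.04, adjusted p = 0.018). Lower under DR were Stard4 in oligodendrocytes (log2 fold change -0.63, adjusted p = 0.040), Npc2, a lysosomal cholesterol carrier, in OPC (-1.11, adjusted p = 0.040) and Osbp2 in VLMC (-1.70, adjusted p = 0.011). The quasi-likelihood test called 1 pair, DESeq2 called 0 and 7 were called with sex as a term. In the same comparison the excitatory marker sum fell by 1.82 on the log2 scale in VLMC, where 19.9% of genes were called, and by 0.66 in oligodendrocytes and in OPC, and its part in these calls was not tested.

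Between genotypes outside the excitatory types, 3 of 307 pairs were called under NR, all in astrocytes, where 7.11% of the genes tested were called, and all 3 were named after their values were seen. Stard4 was higher in GR-KO, at 10.5 and 13.7 CPM in GR-Con and at 26.3 and 19.8 CPM in GR-KO, a log2 fold change of 0.85 (SE 0.22, adjusted p = 0.0025). Gramd1c, an ER protein that moves cholesterol in from the plasma membrane, was higher as well, at 29.0 and 36.9 CPM and at 55.7 and 52.9 CPM (log2 fold change 0.66, SE 0.16, adjusted p = 0.0014). Efr3b was lower in GR-KO, at 410 and 333 CPM in GR-Con and at 278 and 270 CPM in GR-KO, a log2 fold change of -0.50 (SE 0.16, adjusted p = 0.034). The quasi-likelihood test and DESeq2 each called 3 pairs. Both neuronal marker sums were higher in these NR GR-KO astrocytes, as given above, and their part in the 3 calls was not tested. Under DR, 0 of 253 pairs were called in the likelihood ratio test, the quasi-likelihood test and DESeq2, with 11 at an unadjusted p under 0.05.

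Across the 8 libraries and 8 excitatory types, with each type centred on its own mean, the 5 genes whose level was most like that of Osbpl3 were Cox7b, a respiratory chain subunit (Pearson r = 0.817), Rab24 (r = 0.788), Fcho1, an endocytic adaptor (r = 0.783), 9630028H03Rik (r = 0.779) and Ssr4, a subunit of the ER translocon-associated complex (r = 0.776), of 8127 genes and over 64 points. In L2/3 Cox7b was at 24.4 to 25.1 CPM in the 4 NR libraries and at 17.0 to 19.9 CPM in the 4 DR libraries. Osbpl6 had r = 0.439, Osbpl1a 0.386, Osbpl8 0.266 and Osbpl10 -0.65, while Osbpl7 was below the mean of 10 CPM required. The points share libraries, and Osbpl3 itself was chosen on some of them, so these values are a description with no test.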

How the data were processed

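Nuclei from V1 of 8 libraries (2 per group) were sorted as DNA-dye-positive and GFP-negative and profiled with droplet 3′ RNA sequencing. The authors aligned reads with Cell Ranger 8.0.1 to mm10 with an added eGFP sequence and filtered, doublet-removed, clustered and named nuclei in Seurat 5.3.0. The deposited matrix holds UMI counts per gene and nucleus, not normalized, and the deposited cell table gives counts per nucleus with library, rearing, sex, vector and cell type. These cell types and libraries were used as deposited. Library names give group and sex, so libraries were tied to groups and not to replicate numbers.

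Here, UMI counts were summed per library and cell type and given as CPM. Pairs of groups were compared per cell type with 10 or more nuclei in every library, with the likelihood ratio test of edgeR 4.0.16 (R 4.3.3), the test named in the study's methods. Its default low-count filter and TMM factors were chosen here, with Benjamini-Hochberg adjustment over all genes within a cell type and a threshold of 0.05. Where GR-Con libraries had served in the choice of Osbpl3, its values were given without a test. The likelihood ratio test treats the estimated spread as known. SE is the log2 fold change divided by the root of the test statistic. Approximate 95% intervals are 1.96 SE. Alternatives were the quasi-likelihood F-test, DESeq2 1.42.0, other size factors, no filter, sex as a term, a fit on all 8 libraries and leaving out each library. Where a group keeps 1 library, that library is assumed to vary like the others. The scripts were tested on simulated data. With 2 libraries per group, the p-values set a difference against a spread estimated from these libraries. The estimate for each gene borrows from the other genes.

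The 6 genes, the lists and the alternatives were chosen with earlier results of these data known. Named beside the 6 genes were other family members called in an excitatory type in GR-KO, up to 2 genes per direction from each other list called in most excitatory types, and the genes most like Osbpl3. Promoters came from RefSeq on GRCm38.p6 and gene positions from the mm10 annotation. One cell type marker is not reported here and was left out of the marker sums and counts.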

Additional observations from a re-analysis of the deposited data

How the results depend on the processing

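No paired analysis was possible by replicate number because the deposited columns carry none. A fit paired by sex (sex as a term) was run, and it moved the Osbpl3 count in GR-KO from 7 to 15 of 18 types. The share of all genes called with sex as a term or with a library left out is not given. Counts from these fits, here and below, therefore have no background. For dark against normal rearing in GR-KO, Osbpl3 was called in 3 excitatory types, in 0 with the quasi-likelihood test, in 7 with sex as a term and in 1 to 7 with a library left out. In the other types it was called in 4, in 2 with DESeq2 (which gave OPC no adjusted p), in 8 with sex as a term and in 1 to 5 with a library left out. The paralogs had 4 excitatory pairs called, 1 with the quasi-likelihood test, 11 with sex as a term, 7 in the fit on all 8 libraries and 0 to 8 with a library left out. Between genotypes, where Osbpl3 has no test, its median log2 fold change over the excitatory types was -0.37 under NR (-0.68 to -0.19 with a library left out) and 0.71 under DR (0.33 to 0.98). Between genotypes the paralogs had 0 pairs called under NR, 1 with sex as a term and 0 to 2 with a library left out, and 0 under DR, 2 with DESeq2, 1 with sex as a term and 0 to 1 with a library left out. The adjusted p for a difference between excitatory types ran from 5.1e-06 to 1.00 with a library left out. The 4 lists, whose alternatives were chosen after seeing the data, had 8 pairs called, 0 with the quasi-likelihood test, 14 with DESeq2, 19 with sex as a term, 5 in the fit on all 8 libraries and 0 to 14 with a library left out. The L2/3 share of nuclei with an Osbpl3 UMI in NR GR-KO was 32.9% at 2000 UMIs, 19.2% at 1000 and 56.6% at 5000, as the thinning itself sets. The cause of the other shifts was not tested. For single genes and types, 2518 alternative values kept their side of the threshold, 55 passed it newly and 33 no longer passed, and none changed sign while called. With 2 libraries per group, a difference under about the spread between them is not detectable, and types with few nuclei (ChC, microglia and vascular types) give the least precise values.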
